A study of Mus musculus with 12 samples.

Results

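RNA of the soleus, a calf muscle used in posture and, in the mouse, rich in slow and fast oxidative fibres, was described for 39 genes of glucose uptake, glycolysis, lactate and glycogen. The genes were taken by name from a list of enzymes, transporters and regulatory subunits of these pathways, and all 39 were found among the 30323 genes of the table. All 39 also reached the mean of 1 TPM (an abundance per transcript length, scaled to a fixed library total) that was asked of a gene for a test, as did 10757 genes in all. TPM keep no read counts, so the depth behind a value is unknown. The 12 libraries came from male C57BL/6N mice 24 months old, taken from an aging colony, caged singly with food at will and given a voluntary running wheel for 8 weeks, all of which the 4 groups share. Mice were sorted as low functioning (LF) or high functioning (HF) on the accelerating rotarod, had a laparotomy (a surgical opening of the abdomen) or were controls, and gave their muscle 5 days after surgery. Each function class has 3 control and 3 laparotomy libraries, called by group and a replicate number that pairs nothing (LF control 1 and so on). Whether each library is a separate mouse is not stated in the labels, so the p-values measure the spread among libraries, part or all of which may be technical. Function was sorted and not assigned, so LF against HF cannot be told apart from anything else that differed between the mice.

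In muscle, glucose enters through the transporters GLUT1 and GLUT4, is trapped as glucose 6-phosphate by hexokinase, and is then either split to pyruvate by glycolysis or stored as glycogen. Phosphofructokinase sets the pace of glycolysis and is activated by fructose 2,6-bisphosphate, while lactate dehydrogenase and the monocarboxylate transporters make, use and move lactate. Glycogen is built by glycogenin, glycogen synthase and branching enzyme and is broken down by phosphorylase, which phosphorylase kinase switches on and protein phosphatase 1, held on the glycogen particle by targeting subunits, switches off. Fast fibres are known for high glycolytic capacity and slow fibres for oxidative metabolism.

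The members made up 1.41% to 1.84% of all TPM in a library. Aldoa, muscle aldolase, had the highest mean over the 12 libraries at 3555 TPM, followed by Gapdh at 3288 (4044 with its near-identical copies, described below, which would put it first), Ldhb at 1593, Eno3 at 1099 and Pgam2 at 942. Means were at least 100 TPM for 18 members and under 10 TPM for 10 members. Ppp1r3d lay lowest, at 1.09 TPM, just above the level asked for a test. Forms known from muscle were more abundant than their partners. Slc2a4 stood ahead of Slc2a1, Hk2 of Hk1, Pfkm of Pfkp, Pgam2 of Pgam1, Eno3 of Eno1 and Pygm of Pygb. The oxidative form of lactate dehydrogenase, Ldhb, stood above Ldha, and the lactate transporter Slc16a1 above Slc16a3. The tissue label was checked with Acta1, Ckm, Mb and Des, which together gave 33314 to 49037 TPM per library.

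Between LF and HF, 26 of the 39 members changed, averaged over control and laparotomy, and 24 of these were lower in HF. The lower ones included genes of every step described here. The 2 higher members were Hk2, the hexokinase of insulin-responsive muscle, and Gapdh. Of all tested genes, 35.3% were lower in HF and 6.03% higher, against 61.5% and 5.13% of the members. The test was limma on log2(TPM + 1) with adjusted p-values after Benjamini and Hochberg over all 10757 genes and a threshold of 0.05. The median over all tested genes was itself -0.15 (log2, HF minus LF), so each log2 difference below is given relative to the median of its comparison, with its SE, while its adjusted p tests the difference before that shift. On this scale 28 of the 39 members lay below the median gene, and the median member lay at -0.22. With library size factors in place of the TPM scale, where the median gene lay at 0.01, 21 members were called, 15 lower and 6 higher, against 20.6% and 19.9% of all genes. That scaling ended the calls of Pfkfb1, Pfkfb4, Pgk1, Eno1, Eno3, Slc16a3, Phkb, Gyg and Gbe1 and added Hk1, Pfkp, Pgam2 and Ldhb as higher.

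All 6 HF libraries lay below all 6 LF libraries for 10 members (25.6%), namely Ugp2, Gys1, Gbe1, Tpi1, Phkg1, Pkm, Pfkm, Gpi1, Ppp1r3a and Ldha, where 9.31% of all tested genes did so. They lay above for 2 members, Hk2 and Gapdh (5.13%), where 1.77% of all genes did so. Of the 26 calls, 14 held in each of 26 alternative settings, those of Slc2a4, Hk2, Gpi1, Pfkm, Tpi1, Pkm, Ldha, Ldhd, Slc16a1, Phka1, Phkg1, Gys1, Ugp2 and Ppp1r3a. Gene length moved with this comparison: over 10686 tested genes with an annotated length the Spearman correlation of this difference was -0.35 with length and 0.22 with GC content, and 25 members were called once that trend was removed.

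**Figure D1:**
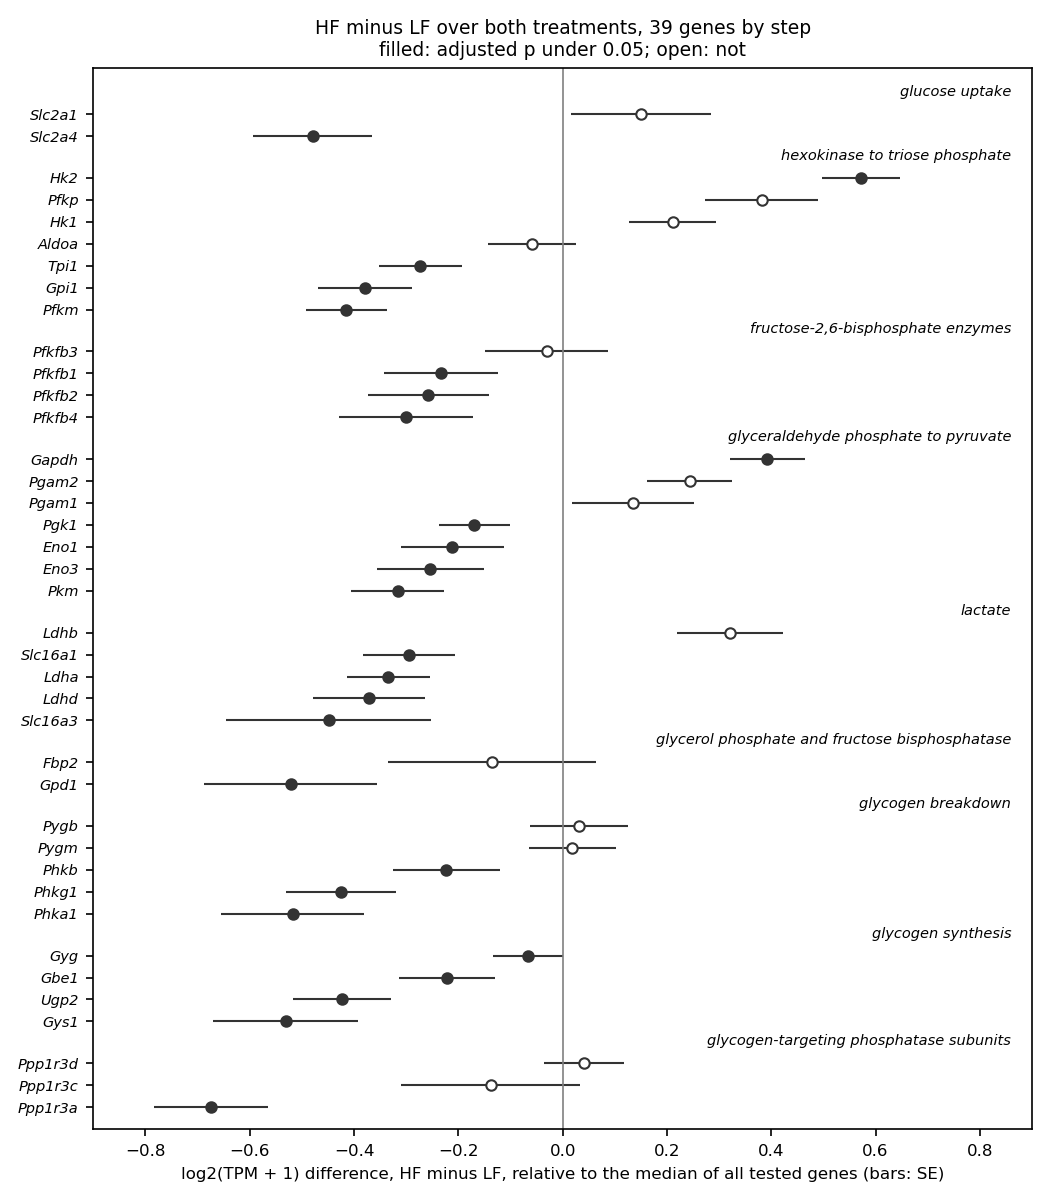
Difference between HF and LF over both treatments for the 39 members by step, as log2(TPM + 1) relative to the all-gene median on the horizontal axis, with SE bars; filled points passed an adjusted p of 0.05. Ppp1r3a lay lowest at -0.67 and Hk2 highest at 0.57; the Gapdh point does not hold once its near-identical copies are added.

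Some markers of muscle, of fibre type and of other cells passed in the same comparison. Of all tested genes, 35.3% were lower in HF and 6.03% higher. Of the 4 genes used to check the tissue, Acta1 (-0.17 ± 0.09, adjusted p = 0.0126, limma) and Des (-0.08 ± 0.07, 0.0238) were lower in HF and Ckm and Mb did not pass. The fast myosins Myh1, Myh2 and Myh4 made up 53.9% ± 2.22 of their TPM and that of the slow myosin Myh7 in LF controls (SD, n = 3), 56.9% ± 4.88 in LF mice after laparotomy, 42.3% ± 10.9 in HF controls and 47.1% ± 6.03 in HF mice after laparotomy. The log2 ratio of these fast myosins summed to Myh7, each as TPM + 1, was then entered in the fit as the fast myosin covariate. This alternative was chosen after seeing the data. With it, 20 members were called, 18 of them lower, and the median member moved from -0.22 to -0.06. The calls of Pfkfb1, Pfkfb4, Eno3, Slc16a3, Gpd1 and Gyg ended, and those of Gpi1, Tpi1, Pgk1, Ldha, Ldhd and Phkg1 stayed with differences smaller by more than 1.5 times. A separate fast fibre covariate, fixed before the fast myosin covariate, ended none of the 26 calls. With that separate covariate 24 members were lower and 2 higher, and the median member stayed at -0.22. Why these covariates gave different results was not tested. The 10 fast fibre markers had 2 lower and 0 higher genes, and the 7 slow fibre markers 2 higher and 1 lower. Of 6 endothelial markers 2 were higher in HF, with summed levels of 147 to 201 TPM in LF and 180 to 246 TPM in HF. Of 4 tested Schwann cell markers 2 were higher, with sums of 62.0 to 76.1 TPM in LF and 76.3 to 240.3 TPM in HF, the highest in HF laparotomy 3. Of 3 tested adipocyte markers 1 was higher, with sums of 292 to 383 TPM in LF and 374 to 600.5 TPM in HF. No erythroid or macrophage marker passed. What part these cell types have in the members' differences was not tested, and in whole muscle fewer cells of a type and less RNA per cell cannot be told apart.

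Of the glucose transporters, Slc2a4 fell and Slc2a1 did not pass. Slc2a4 (ENSMUSG00000018566, chr11:69942539-69948188, minus strand, positions here and below from GENCODE M21 on GRCm38), which encodes the insulin- and contraction-responsive transporter GLUT4, had 249, 289 and 318 TPM in LF controls, 199, 271 and 319 in LF mice after laparotomy, 153, 195 and 204 in HF controls and 164, 175 and 164 in HF mice after laparotomy. The HF libraries were low and overlapped the LF range only at its lower end, where the first LF laparotomy library lay below an HF control library. The difference was -0.48 ± 0.11 (adjusted p = 0.00146, limma), and the HF mean was 64.1% of the LF mean. Slc2a1, which encodes the basal transporter GLUT1, had 8.49, 5.89 and 7.43 TPM in LF controls, 5.99, 5.71 and 9.62 in LF mice after laparotomy, 7.34, 7.21 and 6.99 in HF controls and 5.27, 8.11 and 7.90 in HF mice after laparotomy. Its groups overlapped throughout, with a difference of 0.15 ± 0.13 (adjusted p = 0.988, limma).

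Of the 7 genes from hexokinase to triose phosphate, 3 fell and 1 rose, where 35.3% of all tested genes fell and 6.03% rose. Hk2 (ENSMUSG00000000628, chr6:82725025-82774454, minus strand), the main hexokinase of muscle, had 117, 121 and 140.3 TPM in LF controls, 122, 125 and 143 in LF mice after laparotomy, 171, 147 and 175 in HF controls and 189, 176 and 176 in HF mice after laparotomy. No LF library reached the HF range, with HF at 135% of LF, a difference of 0.57 ± 0.07 and an adjusted p of 0.00124 (limma). Hexokinase 1 (Hk1) had 3.76 to 4.94 TPM in the 6 LF libraries and 4.19 to 5.29 in the 6 HF libraries and was not called (0.21 ± 0.08, adjusted p = 0.561, limma). The next enzyme moved the other way.

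Gpi1 (ENSMUSG00000036427, chr7:34201330-34230336, minus strand), which turns glucose 6-phosphate into fructose 6-phosphate, had 189, 195 and 206 TPM in LF controls, 173, 181 and 244 in LF mice after laparotomy, 127, 147 and 149 in HF controls and 122, 142 and 132 in HF mice after laparotomy. The HF libraries all lay below the LF libraries, and the difference was -0.38 ± 0.09 (adjusted p = 0.00112, limma). Pfkm (ENSMUSG00000033065, chr15:98092589-98132451, plus strand), the muscle form of phosphofructokinase, had 696, 701 and 825 TPM in LF controls, 649, 730.3 and 832 in LF mice after laparotomy, 479, 548 and 549 in HF controls and 493, 467 and 459 in HF mice after laparotomy. Again no HF library reached the LF range, and HF was 67.6% of LF, with a difference of -0.42 ± 0.08 and an adjusted p of 0.00045 (limma). The platelet form Pfkp had 4.17, 2.48 and 2.24 TPM in LF controls, 3.25, 2.86 and 2.52 in LF mice after laparotomy, 3.36, 3.39 and 3.31 in HF controls and 3.53, 4.12 and 3.67 in HF mice after laparotomy. Its libraries were spread widely in LF control, and the difference of 0.38 ± 0.11 did not pass (adjusted p = 0.1, limma). Without LF control 1, its highest library in LF, it passed as higher (0.48, adjusted p = 0.00775), as it did with size factors, quantile normalization, array weights or the length and GC trend removed.

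Aldoa, which cleaves fructose 1,6-bisphosphate, had 3307, 3827 and 4158 TPM in LF controls, 3557, 3826 and 4175 in LF mice after laparotomy, 2969, 3065 and 3798 in HF controls and 3207, 3598 and 3176 in HF mice after laparotomy. The ranges overlapped through the third HF control and the second HF laparotomy library, and the difference of -0.06 ± 0.08 did not pass (adjusted p = 0.0667, limma). It passed as lower without LF control 1 (-0.11, adjusted p = 0.0360) or HF control 3 (-0.14, 0.0260) and with quantile normalization, array weights or the length and GC trend removed, and ran from -0.14 to -0.01 over the libraries left out in turn, being nearest 0 without HF control 2. With the fast myosin covariate it was 0.17 (adjusted p = 0.696, limma). Tpi1 (ENSMUSG00000023456, chr6:124810586-124814296, minus strand), which interconverts the triose phosphates, had 530.0, 569 and 615 TPM in LF controls, 528, 631 and 693 in LF mice after laparotomy, 415, 449 and 501 in HF controls and 445, 439.9 and 406 in HF mice after laparotomy. Every HF library was below every LF library, with a difference of -0.27 ± 0.08 and an adjusted p of 0.00185 (limma). Exons of Pfkm, Pfkp, Aldoa and Tpi1 overlap those of Senp1, Pitrm1, Fam57b and Spsb2 on the opposite strand, and no source used here states whether strand was used in the quantification, so these values carry that uncertainty.

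**Figure D2:**
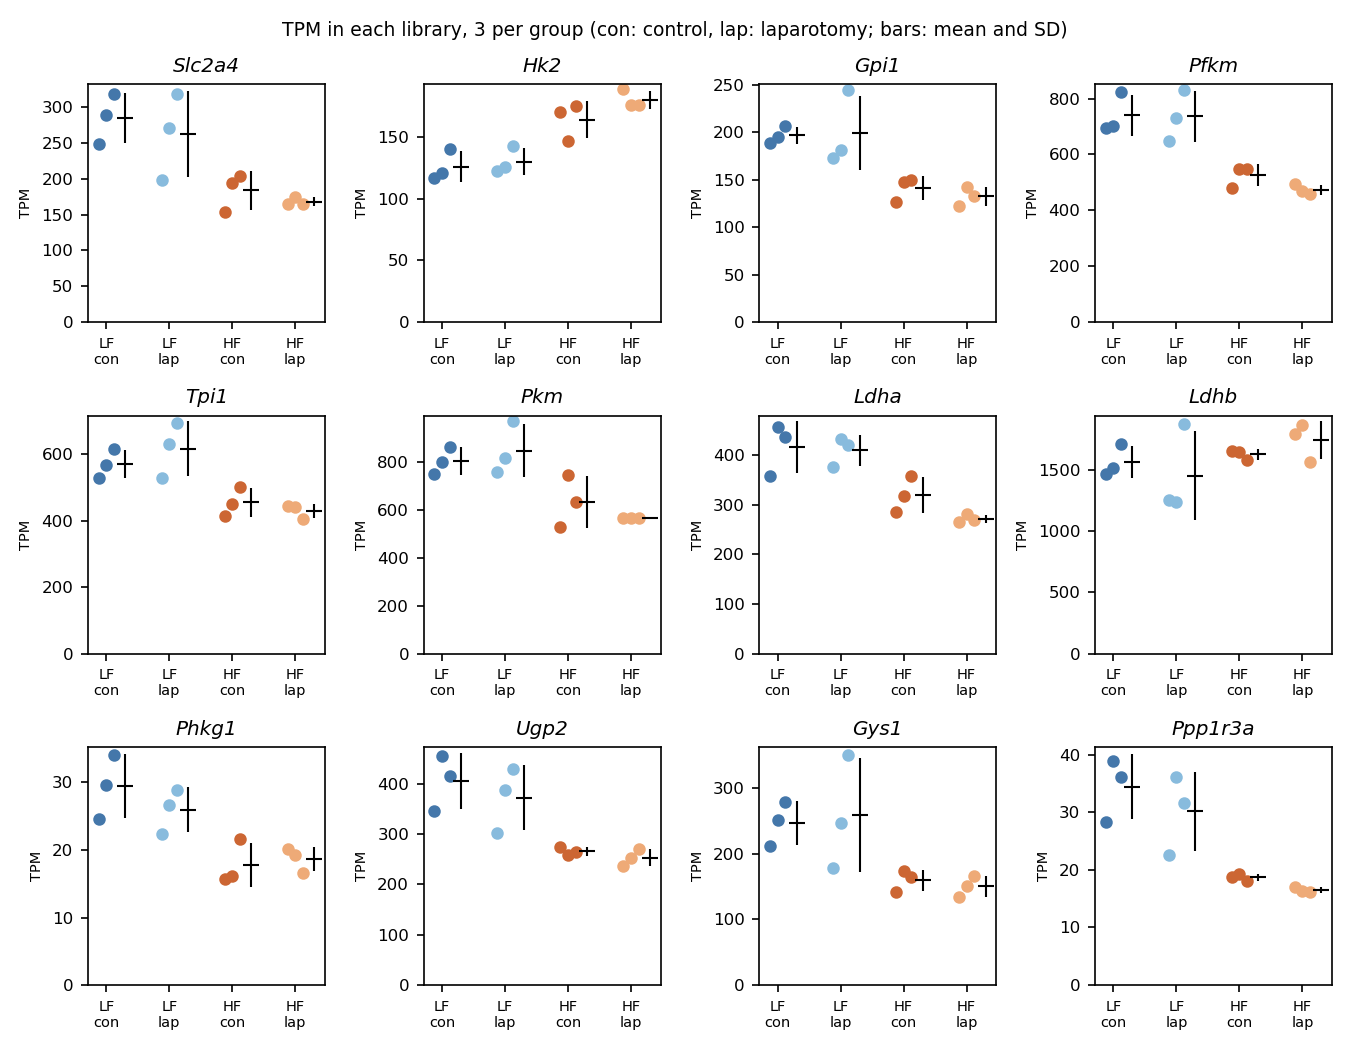
TPM of 12 members in every library (points, 3 per group) with group mean and SD beside them; all vertical axes start at 0. Hk2 stood higher in all HF libraries, Ldhb overlapped between LF and HF, and the HF libraries of Gpi1, Pfkm, Tpi1, Pkm, Ldha, Phkg1, Ugp2, Gys1 and Ppp1r3a lay below all LF libraries.

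Where 35.3% of all tested genes were lower in HF, 3 of 4 bifunctional enzymes of fructose 2,6-bisphosphate fell. These enzymes make and remove this activator of phosphofructokinase and were of low abundance. Pfkfb1, the most abundant of them and known as the liver and muscle form, had 16.0, 23.2 and 24.9 TPM in LF controls, 17.6, 21.8 and 21.7 in LF mice after laparotomy, 14.9, 16.7 and 17.9 in HF controls and 14.3, 16.7 and 13.6 in HF mice after laparotomy. The HF libraries stayed at or under 17.9 TPM, whereas 4 of the 6 LF libraries were above 20 TPM and 2 were within the HF range, and the difference was -0.23 ± 0.11 (adjusted p = 0.0144, limma). Its exons overlap Apex2 on the opposite strand. Pfkfb2 had 4.60 to 7.02 TPM in the 6 LF libraries and 3.42 to 5.87 in the 6 HF libraries, a difference of -0.26 ± 0.12 (adjusted p = 0.0148, limma) that no longer passed when the length and GC trend was removed (-0.15, adjusted p = 0.0532). Pfkfb4 had 1.55 to 2.98 TPM in the 6 LF libraries and 0.711 to 1.80 in the 6 HF libraries, with a difference of -0.30 ± 0.13 (adjusted p = 0.0147, limma) that was -0.18 without the third HF laparotomy library and still passed. Pfkfb3, the form with the highest kinase activity relative to phosphatase, had 5.18 to 7.23 TPM in the 6 LF libraries and 3.62 to 8.05 in the 6 HF libraries and did not pass (-0.03 ± 0.12, adjusted p = 0.244, limma).

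Of the 7 genes from glyceraldehyde 3-phosphate to pyruvate, 4 fell and Gapdh rose, where 35.3% of all tested genes fell and 6.03% rose. Gapdh, often used as a loading control, had 3023, 2802 and 3141 TPM in LF controls, 3176, 3154 and 2751 in LF mice after laparotomy, 3194, 3416 and 3917 in HF controls and 3771, 3704 and 3404 in HF mice after laparotomy. All HF libraries lay above all LF libraries, and the difference was 0.39 ± 0.07 (adjusted p = 0.0163, limma). The table lists 80 near-identical copies of this gene, 18 of them with a mean of at least 1 TPM, and their sum was 901 to 1774 TPM in LF libraries but 141 to 603 TPM in HF libraries. The copies took 3.80% to 39.2% of the joint total of a library. Gapdh and its copies together gave 3793 to 4525 TPM in LF and 3335 to 4389.9 TPM in HF, overlapping ranges, and the summed difference was 0.04 ± 0.07 with an adjusted p of 0.246 (limma). The rise of Gapdh did not hold when the values of the family were pooled. It also ended when the length and GC trend was removed (0.24, adjusted p = 0.240). Exons of Gapdh overlap Iffo1 on the opposite strand.

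**Figure D3:**
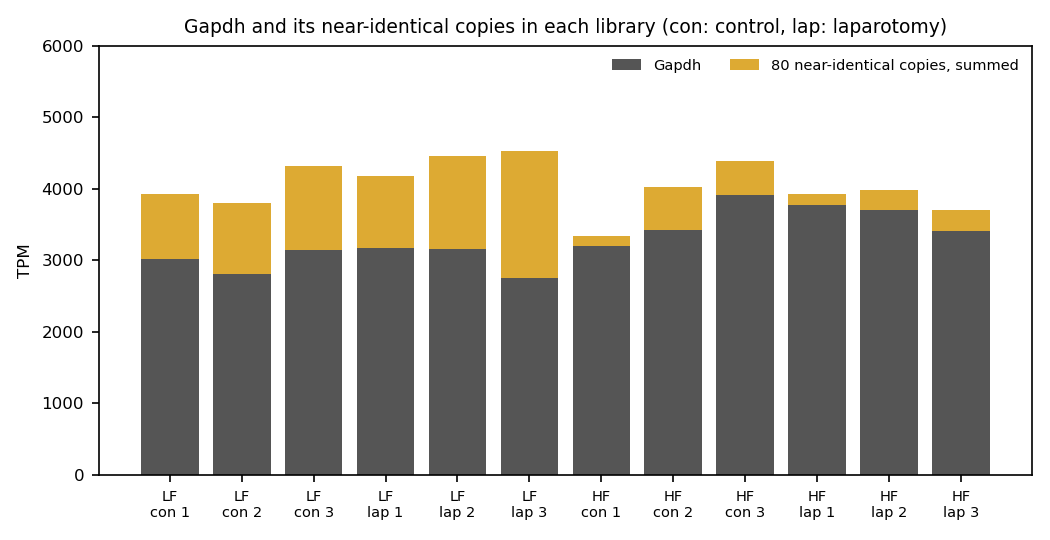
TPM of Gapdh (dark) and of its 80 near-identical copies summed (light), stacked, in each of the 12 libraries. The copies held 901 to 1774 TPM in the LF libraries and 141 to 603 TPM in the HF libraries, and the stacked totals of LF and HF overlap.

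Pgk1, phosphoglycerate kinase, had 218 to 247 TPM in the 6 LF libraries and 163 to 220.1 in the 6 HF libraries, with a difference of -0.17 ± 0.07 (adjusted p = 0.00343, limma). Its copies were listed at 11.6 to 45.6 TPM in LF libraries and at 0 in all HF libraries, and with them the difference was -0.33 ± 0.07 (adjusted p = 0.000693). The phosphoglycerate mutases were not called: Pgam2, the muscle form, had 783 to 1117 TPM in the 6 LF libraries and 928 to 1077 in the 6 HF libraries (0.24 ± 0.08, adjusted p = 0.358, limma). Pgam1 had 10.4 to 18.4 TPM in the 6 LF libraries and 10.9 to 14.6 in the 6 HF libraries (0.13 ± 0.12, adjusted p = 0.941, limma). Both enolases fell, the muscle form Eno3 with 1070.4 to 1392 TPM in the 6 LF libraries and 784 to 1201 in the 6 HF libraries and a difference of -0.25 ± 0.10 (adjusted p = 0.00808, limma). The widely expressed Eno1 had 60.4 to 83.1 TPM in the 6 LF libraries and 47.4 to 70.4 in the 6 HF libraries, with a difference of -0.21 ± 0.10 (adjusted p = 0.0119, limma).

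Pkm (ENSMUSG00000032294, chr9:59656368-59679375, plus strand), pyruvate kinase, had 747, 801 and 864 TPM in LF controls, 756, 814 and 969 in LF mice after laparotomy, 527, 743 and 632 in HF controls and 565, 565 and 566 in HF mice after laparotomy. The second HF control library, at the top of the HF range, lay just under the lowest LF library, so that the ranges did not overlap. The difference was -0.32 ± 0.09 (adjusted p = 0.00197, limma) and HF was 72.7% of LF. Splice forms of Pkm cannot be separated in a table of gene values.

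Of the lactate dehydrogenase subunits, Ldha fell and Ldhb did not pass. Ldha (ENSMUSG00000063229, chr7:46841475-46855627, plus strand), whose subunits are known to favour reduction of pyruvate to lactate, had 358, 456 and 436 TPM in LF controls, 375, 433 and 420.5 in LF mice after laparotomy, 285, 319 and 358 in HF controls and 265, 281 and 269.7 in HF mice after laparotomy. The third HF control library came within 1 TPM of the lowest LF library, the first LF control library, without reaching it, and the difference was -0.33 ± 0.08 (adjusted p = 0.00101, limma). Ldhb (ENSMUSG00000030246, chr6:142490249-142507957, minus strand), whose subunits are typical of heart and slow muscle, had 1459.9, 1510.4 and 1706 TPM in LF controls, 1249, 1236 and 1870.2 in LF mice after laparotomy, 1651, 1646 and 1575 in HF controls and 1792, 1863 and 1563 in HF mice after laparotomy. Its values overlapped, the first and second LF laparotomy libraries being the lowest and the third LF laparotomy library the highest, and the difference of 0.32 ± 0.10 did not pass (adjusted p = 0.185, limma). Without LF laparotomy 3, Ldhb passed as higher, as it did with size factors, quantile normalization, rescaled TPM and array weights. Over these alternatives and all others its adjusted p ran from 0.000865 to 0.727.

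As a share of their joint TPM, Ldhb made up 78.9% ± 1.86 in LF controls, 77.5% ± 3.83 in LF mice after laparotomy, 83.5% ± 1.91 in HF controls and 86.4% ± 1.01 in HF mice after laparotomy (SD, n = 3). The HF share was higher by 6.75 percentage points, with an adjusted p of 0.0133 over 8 shares (exact two-sided permutation within treatments, p = 0.005, the smallest it can give). The ranges met, at 81.5% for the third HF control library and 81.6% for the third LF laparotomy library, while the other 10 libraries were separated by group. Leaving out each library in turn gave 5.88 to 7.78 points with adjusted p-values of at most 0.04. Without the 3 libraries with Myh4 above 30 TPM (LF control 3, LF laparotomy 1 and HF laparotomy 2) it was 6.65 points with an adjusted p of 0.0889, on 60 assignments of the labels in place of 400.

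The window before a transcription start can hold the core of the hypoxia response element, ACGTG, which hypoxia-inducible factors are known to bind and for which glycolytic genes are the textbook targets. To show how the promoters of the called Ldha, the uncalled Ldhb and the rising Hk2 differ in this respect, the 250 bases before the start are printed 5′ to 3′ in the direction of the gene, from RefSeq on GRCm38.p6, with the core on either strand in capitals. The Ldha window is chr7:46845554-46845803 on the plus strand and lies inside the GENCODE span of the gene, before its main start. The Ldhb window is chr6:142507958-142508207 and the Hk2 window chr6:82774455-82774704, both on the minus strand and both directly before the gene.
Ldha: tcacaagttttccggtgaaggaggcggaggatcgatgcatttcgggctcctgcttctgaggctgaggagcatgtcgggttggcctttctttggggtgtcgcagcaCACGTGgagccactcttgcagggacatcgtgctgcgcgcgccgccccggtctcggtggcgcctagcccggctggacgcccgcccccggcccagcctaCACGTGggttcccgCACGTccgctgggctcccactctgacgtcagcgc
Ldhb: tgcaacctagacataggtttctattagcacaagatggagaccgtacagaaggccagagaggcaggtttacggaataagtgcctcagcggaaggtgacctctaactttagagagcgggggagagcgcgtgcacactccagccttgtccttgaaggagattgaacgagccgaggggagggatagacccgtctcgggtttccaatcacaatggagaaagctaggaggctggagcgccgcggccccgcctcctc
Hk2: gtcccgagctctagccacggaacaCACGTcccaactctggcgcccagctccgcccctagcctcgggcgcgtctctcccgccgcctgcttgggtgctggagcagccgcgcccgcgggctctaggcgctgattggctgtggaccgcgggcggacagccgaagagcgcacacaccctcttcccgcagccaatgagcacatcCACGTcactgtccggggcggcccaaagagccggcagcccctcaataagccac
Ldha holds 5 matches at 3 places, since CACGTG reads as the core on both strands and is an E-box (CANNTG) as well. Hk2 holds 2 matches and Ldhb none. Thus a falling and a rising member both carry the letters.

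Among the 37 members with such a window (all but Slc2a4 and Gpd1), 19 hold the core on either strand in at least 1 window, or 51.4%. Over all 27025 genes with windows the share was 18.5%, and over the 8294 genes that were tested and had a window it was 25.9%. It was held by 9 of the 22 lower members, by 1 of the 2 higher members and by 9 of the 13 members that were not called. The E-box CANNTG was held by 73.0% of members and 69.3% of all genes, and the GC box GGGCGG by 59.5% and 35.4%. TATAAA was held by 5.41% of members and 14.3% of all genes. The half-site of oestrogen-related receptors was in 0 of 37 member windows and in 1.30% of all genes. For motifs other than the hypoxia core, the share over tested genes was not taken. All of these are matches of letters, not shown to be sites.

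The other lactate genes fell. Ldhd, the mitochondrial D-lactate dehydrogenase, had 11.2 to 17.4 TPM in the 6 LF libraries and 7.90 to 11.6 in the 6 HF libraries, with a difference of -0.37 ± 0.11 (adjusted p = 0.00281, limma); its exons overlap Znrf1 on the opposite strand. Slc16a1, the lactate transporter MCT1 of oxidative fibres, had 27.0 to 37.3 TPM in the 6 LF libraries and 22.6 to 27.8 in the 6 HF libraries, with a difference of -0.29 ± 0.09 (adjusted p = 0.00233, limma). Slc16a3, the exporter MCT4 of glycolytic fibres, had 4.06 to 8.05 TPM in the 6 LF libraries and 2.03 to 6.48 in the 6 HF libraries, with a difference of -0.45 ± 0.20 (adjusted p = 0.0277, limma). That call was lost without LF control 2, LF control 3, LF laparotomy 3, HF control 2, HF laparotomy 1 or HF laparotomy 3, where the adjusted p reached 0.0700 at most and the difference ran from -0.59 to -0.31 over all libraries left out in turn.

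Outside the main line, Gpd1, the cytosolic glycerol 3-phosphate dehydrogenase of the glycerol phosphate shuttle, had 14.6, 20.7 and 23.7 TPM in LF controls, 13.2, 16.4 and 17.5 in LF mice after laparotomy, 8.13, 9.84 and 14.3 in HF controls and 7.65, 14.5 and 10.6 in HF mice after laparotomy. HF libraries were low apart from the third HF control and the second HF laparotomy library, which lay within the LF range, and the difference was -0.52 ± 0.17 (adjusted p = 0.00707, limma). Fbp2, the muscle fructose bisphosphatase, had 2.76 to 6.66 TPM in the 6 LF libraries and 2.31 to 5.13 in the 6 HF libraries and did not pass (-0.14 ± 0.20, adjusted p = 0.27, limma).

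In glycogen breakdown the kinase fell and the phosphorylases did not pass. Pygm, muscle glycogen phosphorylase, had 376, 413 and 462 TPM in LF controls, 369, 370.3 and 449 in LF mice after laparotomy, 357, 337 and 404 in HF controls and 378, 415 and 339 in HF mice after laparotomy. LF and HF overlapped over most of their range, with a difference of 0.02 ± 0.08 (adjusted p = 0.237, limma). Pygb, the brain form, had 5.72 to 8.65 TPM in the 6 LF libraries and 5.20 to 9.35 in the 6 HF libraries (0.03 ± 0.09, adjusted p = 0.343, limma). The kinase that activates phosphorylase is built of regulatory alpha and beta subunits, a catalytic gamma subunit and calmodulin.

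Phkg1 (ENSMUSG00000025537, chr5:129863421-129898549, minus strand), the muscle catalytic subunit, had 24.6, 29.6 and 34.1 TPM in LF controls, 22.3, 26.7 and 28.9 in LF mice after laparotomy, 15.7, 16.2 and 21.6 in HF controls and 20.2, 19.3 and 16.7 in HF mice after laparotomy. All HF libraries lay below all LF libraries, the third HF control library coming closest, and the difference was -0.43 ± 0.11 (adjusted p = 0.00165, limma), or 65.9% of the LF mean. Phka1, the muscle alpha subunit, had 26.2 to 48.3 TPM in the 6 LF libraries and 20.7 to 27.8 in the 6 HF libraries, with a difference of -0.52 ± 0.14 (adjusted p = 0.00278, limma). Phkb, the beta subunit, had 41.3 to 54.7 TPM in the 6 LF libraries and 31.4 to 50.4 in the 6 HF libraries, with a difference of -0.22 ± 0.10 (adjusted p = 0.0123, limma). Exons of Phkg1 overlap Sumf2 on the opposite strand.

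All 4 genes of glycogen synthesis were called lower, although the calls of Gbe1 and Gyg ended with size factors. Of all tested genes 35.3% were lower in HF, and 20.6% with size factors. Ugp2 (ENSMUSG00000001891, chr11:21321138-21371201, minus strand), which makes the UDP-glucose that is added to glycogen, had 345, 455 and 417 TPM in LF controls, 302, 388 and 429 in LF mice after laparotomy, 276, 258 and 265 in HF controls and 236, 253 and 271 in HF mice after laparotomy. The lowest LF library, the first LF laparotomy library, was above every HF library, and the difference was -0.42 ± 0.09 (adjusted p = 0.000963, limma). Gys1, muscle glycogen synthase, had 211, 251 and 278 TPM in LF controls, 178, 247 and 351 in LF mice after laparotomy, 141, 173 and 164 in HF controls and 133, 151 and 166 in HF mice after laparotomy. LF libraries were widely spread, with the third LF laparotomy library highest, yet none came down to the HF range, and HF was 61.2% of LF, with a difference of -0.53 ± 0.14 and an adjusted p of 0.00269 (limma); its exons overlap Ruvbl2 on the opposite strand.

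Gbe1, the branching enzyme, had 86.0 to 121 TPM in the 6 LF libraries and 70.4 to 85.2 in the 6 HF libraries, with a difference of -0.22 ± 0.09 (adjusted p = 0.00735, limma). Gyg, glycogenin, the primer of the particle and the most abundant gene of this step, had 395, 459 and 471 TPM in LF controls, 365, 374 and 411 in LF mice after laparotomy, 393, 384 and 350.5 in HF controls and 318, 347 and 337 in HF mice after laparotomy. HF and LF overlapped through the first and second HF control libraries. The difference before the shift passed (adjusted p = 0.0231, limma), but relative to the median gene it was only -0.07 ± 0.07. The call was lost without LF control 2, LF control 3, HF control 3 or HF laparotomy 1, where the adjusted p was at most 0.0612, and over all libraries left out in turn the relative difference ran from -0.11 to -0.04. Size factors, rescaled TPM, the fast myosin covariate and removal of the length and GC trend also ended the call of Gyg. So did leaving out the 3 libraries high in Myh4.

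The targeting subunits that bring protein phosphatase 1 to glycogen did not move together. Ppp1r3a (ENSMUSG00000042717, chr6:14713977-14755274, minus strand), the large striated muscle subunit, had 28.2, 38.9 and 36.2 TPM in LF controls, 22.6, 36.2 and 31.6 in LF mice after laparotomy, 18.7, 19.3 and 18.0 in HF controls and 17.0, 16.3 and 16.2 in HF mice after laparotomy. HF libraries were tightly grouped and all below the LF libraries, and HF was 54.5% of LF. The difference of -0.67 ± 0.11 was the largest fall of the 39 members in this comparison and had the smallest adjusted p, 0.0004 (limma).

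Ppp1r3c, the subunit also known as protein targeting to glycogen and the most abundant of these 3, had 172, 157 and 152 TPM in LF controls, 125, 146 and 304 in LF mice after laparotomy, 150.4, 123 and 141 in HF controls and 119.6, 150.3 and 147 in HF mice after laparotomy. The third LF laparotomy library stood alone, the next highest being the first LF control library, the other groups overlapped, and the difference of -0.14 ± 0.17 did not pass (adjusted p = 0.199, limma). Without LF laparotomy 1 it passed (-0.23, adjusted p = 0.0498), while without LF laparotomy 3 the difference was 0.03 (adjusted p = 0.414, limma) and with array weights 0.07. Ppp1r3d had 0.955 to 1.29 TPM in the 6 LF libraries and 0.863 to 1.41 in the 6 HF libraries and did not pass (0.04 ± 0.08, adjusted p = 0.279, limma).

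Windows of 3 members (8.11% of 37) held the motif of MEF2 factors, known regulators of muscle metabolism. Over all genes with windows, tested or not, the share was 1.99%. The Ppp1r3a window is shown as 1 of these 3. It spans chr6:14755275-14755524 on the minus strand of GRCm38.p6, directly before the gene, with the MEF2 motif in capitals, and holds 4 E-boxes, 2 TATAAA matches and none of the hypoxia core.
Ppp1r3a: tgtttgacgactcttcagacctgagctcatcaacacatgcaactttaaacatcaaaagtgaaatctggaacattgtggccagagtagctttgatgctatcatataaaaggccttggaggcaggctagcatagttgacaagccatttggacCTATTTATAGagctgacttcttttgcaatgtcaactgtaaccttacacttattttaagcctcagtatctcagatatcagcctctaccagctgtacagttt

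Other isoform shares moved little in absolute terms. Slc2a4 made up 97.5% ± 0.683 of Slc2a1 and Slc2a4 in LF controls, 97.4% ± 0.497 in LF mice after laparotomy, 96.2% ± 0.663 in HF controls and 96.0% ± 0.814 in HF mice after laparotomy (SD, n = 3), a fall of 1.35 points (adjusted p = 0.0133, exact permutation). The libraries overlapped, and the adjusted p reached 0.0533 without LF laparotomy 1, LF laparotomy 2, LF laparotomy 3, HF control 1 or HF control 3, and 0.05 without HF control 2. Pfkm made up 99.6% ± 0.169 of Pfkp and Pfkm in LF controls, 99.6% ± 0.0983 in LF mice after laparotomy, 99.4% ± 0.0528 in HF controls and 99.2% ± 0.0814 in HF mice after laparotomy (SD, n = 3). That share fell by 0.313 points (adjusted p = 0.0133, exact permutation), and every HF library was below every LF library. Without the same 3 libraries high in Myh4 the adjusted p of both shares was 0.0889. Hk2 of Hk1 and Hk2 was higher by 0.685 points at an adjusted p of 0.05, which is not under the threshold; it was 0.03 without HF laparotomy 3. The shares of Pgam2, Eno3, Slc16a1 and Pygm had adjusted p-values from 0.633 to 0.85 (exact permutation).

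**Figure D4:**
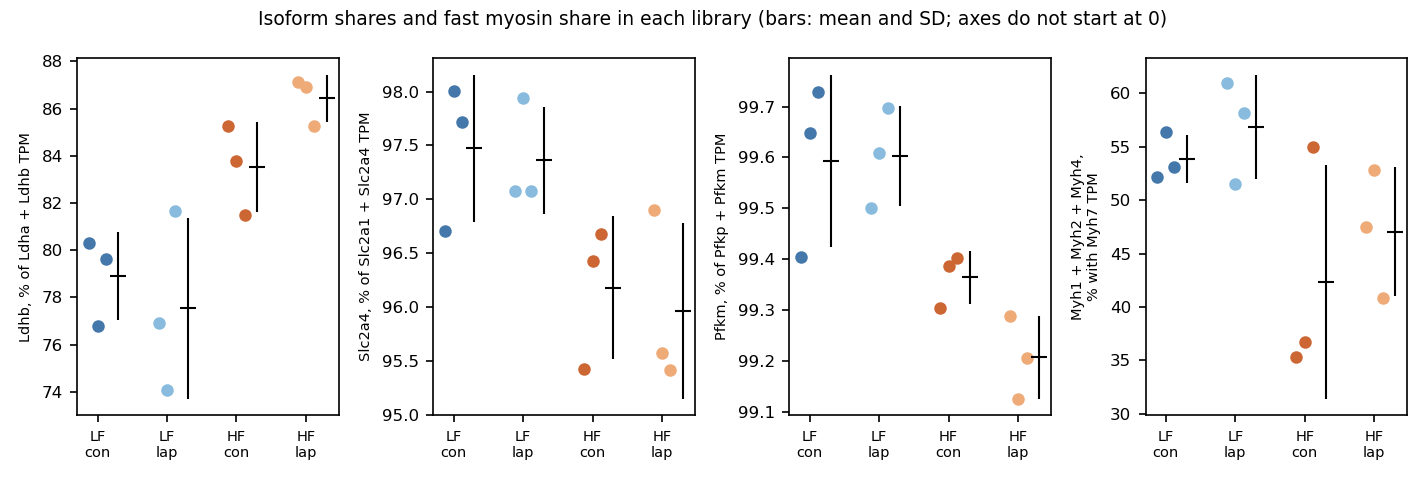
Share of Ldhb, Slc2a4 and Pfkm in the TPM of each pair, and of the fast myosins Myh1, Myh2 and Myh4 in all myosin TPM with Myh7, in percent, for every library (points) with group mean and SD; axes do not start at 0. The Ldhb share ran from 74.1% to 81.6% in LF and from 81.5% to 87.1% in HF, and the group means of the fast myosin share were lower in HF.

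Within the controls alone, 10 members were called, 9 lower and 1 higher, where 8.04% of all genes were lower and 2.44% higher. The smallest adjusted p-values were those of Ppp1r3a (-0.73 ± 0.15, adjusted p = 0.0155, limma), Phkg1 (-0.59 ± 0.15, 0.0217), Pfkm (-0.38 ± 0.11, 0.0226) and Ugp2 (-0.49 ± 0.13, 0.0226). Slc2a4, Gpi1, Slc16a1, Gpd1 and Phka1 also fell and Hk2 rose. None of these calls held without LF control 2, LF control 3 or HF control 1, where 0 members passed. Without HF control 3, Phkg1 alone passed, and without the 3 libraries with Myh4 above 30 TPM (LF control 3, LF laparotomy 1 and HF laparotomy 2) Ppp1r3a alone; without LF laparotomy 3 or HF laparotomy 2 the count was 16 or 6.

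After laparotomy, 17 members were called between LF and HF, 16 lower and 1 higher, where 24.5% of all genes were lower and 1.5% higher. Pfkm (-0.44 ± 0.11, adjusted p = 0.00438, limma), Ppp1r3a (-0.61 ± 0.15, 0.00623), Gpi1 (-0.38 ± 0.13, 0.00981) and Hk2 (0.66 ± 0.10, 0.0101) passed there in each of 27 alternatives. Ldha (-0.39 ± 0.11, 0.00623), Pkm (-0.38 ± 0.13, 0.00974) and Tpi1 (-0.32 ± 0.11, 0.00982) passed in all but that with size factors. The count was 7 without LF laparotomy 2, 10 without LF laparotomy 3, 9 without HF laparotomy 1, 10 without HF laparotomy 2 and 11 without HF laparotomy 3, and 8 with size factors. The median member lay at -0.22 relative to all genes both in controls and after laparotomy; the latter was -0.14 without HF laparotomy 3 and -0.12 with array weights. Whether HF and LF differed more after laparotomy is the interaction, in which 0% of genes and none of the members passed.

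Laparotomy itself called no member. In limma 0 of the 39 passed in LF, in HF, averaged over both or in the interaction, and 0% of all 10757 genes did in each of the 4. At an unadjusted p under 0.05 there were 1 member in LF, 2 in HF, 2 averaged and 1 in the interaction, with 291, 665, 747 and 331 genes in all. With array weights 4 members passed in LF (Gyg, Ldhb and Pygb lower, Eno1 higher) and 3 averaged (Gyg and Pygb lower, Pfkfb3 higher), with 734 and 630 genes in all. The median member lay at -0.01 in LF, 0.04 in HF, 0.03 averaged and 0.10 in the interaction. With single libraries left out these medians ran from -0.07 to 0.02, from -0.01 to 0.11, from -0.01 to 0.06 and from 0.02 to 0.13. The sign turned in LF without LF control 2, LF control 3, LF laparotomy 1 or LF laparotomy 2, in HF without HF control 1 or HF laparotomy 2, and averaged without LF laparotomy 3 or HF control 1, and the smallest interaction medians were 0.018 (HF control 1 left out) and 0.024 (HF laparotomy 2 left out).

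Pygb, the less abundant of the phosphorylases among the members, had the smallest p of the members in LF (-0.31 ± 0.13, unadjusted p = 0.025), in HF (-0.25 ± 0.13, unadjusted p = 0.0142) and averaged (-0.28 ± 0.09, unadjusted p = 0.00225, adjusted p = 0.683, limma). Its levels were 8.15, 8.26 and 8.65 TPM in LF controls, 6.07, 5.72 and 7.57 in LF mice after laparotomy, 7.0, 9.35 and 7.10 in HF controls and 5.52, 5.20 and 6.61 in HF mice after laparotomy. Control and laparotomy ranges did not overlap in LF or in HF, where 3.92% and 16.6% of all genes lay wholly lower after laparotomy. Pfkfb3 was the other member with a small unadjusted p in HF (0.51 ± 0.17, unadjusted p = 0.0378, adjusted p = 0.655, limma), and Gyg averaged (-0.11 ± 0.07, unadjusted p = 0.0171, adjusted p = 0.683, limma). In the interaction it was Eno1 (-0.34 ± 0.20, unadjusted p = 0.0489, adjusted p = 1, limma), with a value of 0.30 in LF and -0.04 in HF. None of these passed after adjustment over all genes, and they were singled out after their values were seen. The smallest adjusted p for a share was 0.12, for Pygm of Pygb and Pygm, higher by 0.483 points after laparotomy (exact permutation).

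**Figure D5:**
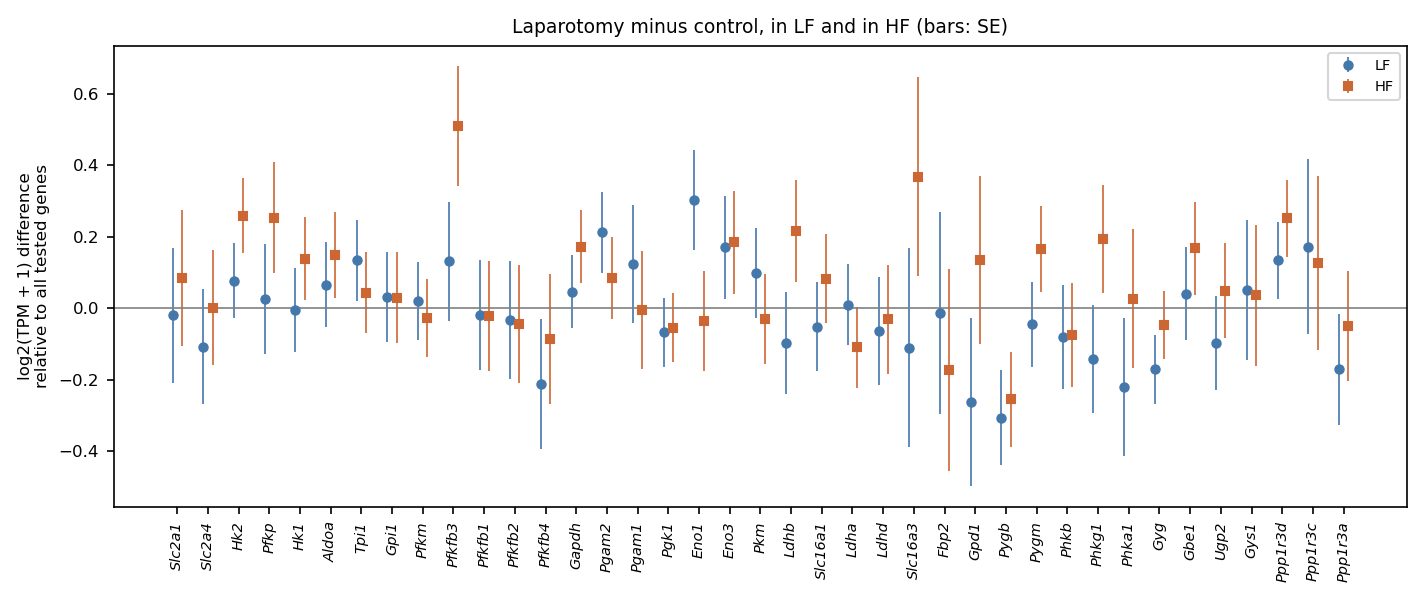
Laparotomy minus control for the 39 members in LF (circles) and in HF (squares), as log2(TPM + 1) difference relative to the all-gene median, with SE bars. No point passed; Pygb lay at -0.31 and -0.25, and Pfkfb3 in HF at 0.51.

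Other genes of these pathways were taken as a list of 61 genes that are not members, covering further transporters, phosphoglucomutases, lysosomal breakdown of glycogen, the glycerol phosphate shuttle, kinases and transcription factors of glucose metabolism. Of these 48 reached 1 TPM and were tested. Between LF and HF 25 fell, 0 rose and 23 did not pass, where 35.3% of all genes fell and 6.03% rose. With size factors those all-gene shares were 20.6% and 19.9%, and the count of the list on that scale is not given here. The median of the list was -0.13 relative to all genes. Ppargc1a, the coactivator PGC-1alpha of oxidative metabolism, had the smallest p. It had 7.96, 10.4 and 9.40 TPM in LF controls, 5.30, 8.68 and 10.1 in LF mice after laparotomy, 3.71, 4.70 and 4.52 in HF controls and 3.59, 3.56 and 4.40 in HF mice after laparotomy, with a difference of -0.76 ± 0.13 (adjusted p = 0.000514, limma).

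Gpd1l, a relative of Gpd1, gave -0.45 ± 0.10 (adjusted p = 0.000902, limma). The factors Mef2d (-0.54 ± 0.11, adjusted p = 0.00102, limma) and Mef2a (-0.40 ± 0.10, 0.00124) fell as well. Gsk3b, the kinase that inhibits glycogen synthase, gave -0.56 ± 0.12 (adjusted p = 0.00128, limma). The calls of Ppargc1a, Gpd1l, Mef2d, Mef2a and Gsk3b held in each of the 26 alternatives. For laparotomy 0 of the 48 passed in limma, in LF, in HF, averaged or in the interaction.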

How the data were processed

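RNA of 12 soleus libraries in 4 groups of 3 was extracted with QIAzol and an RNeasy kit and sequenced from polyA-selected, stranded Illumina libraries, per the labels' protocols. The authors deposited 1 gene-level TPM value per gene and library, and kallisto, DESeq2 and GRCm38 are named per the submitters' processing notes, with no version or role. The deposited TPM summed to 956473 to 962830 per library over 30323 genes. For counts, depth and strand setting the sources used here give nothing. Members, lists and rules were chosen with earlier results of these data known. Symbols and positions came from GENCODE M21 (29857 identifiers matched, 466 did not), and promoter windows from RefSeq on GRCm38.p6, cut at the listed RefSeq start.

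The 10757 genes that averaged 1 TPM or more were fitted on the log2(TPM + 1) scale by limma (3.58.1, under R 4.3.3), all 12 libraries sharing a variance trend and 8 residual degrees of freedom. Tests were two-sided, with Benjamini-Hochberg adjustment over the tested genes within each of 7 comparisons. Isoform shares were compared by exact two-sided permutation of labels within treatments (HF against LF) or within function (laparotomy), 400 assignments, adjusted over 8 shares. Near-identical copies were transcripts found with BLAST 2.17.0 at 95% identity over 80% of the copy. Values in every library were given for the most abundant member of each step, up to 10 members with the smallest p in HF minus LF averaged, up to 5 in each other comparison and both genes of each share that passed; those of Gys1, Pygb and Ppargc1a were added after their values were seen. Of the wider list, the genes among the 6 smallest p were named, except 1 that is not reported here. The alternatives changed the pseudocount (0.5 or 0.1), the filter (none, or 5 TPM), the scaling (size factors by median of ratios, quantiles, or TPM recomputed after removing 13 mitochondrially encoded genes and the 10 highest), the variance model (robust eBayes, array weights), or the libraries fitted (only the groups compared, each library left out, or the 3 with Myh4 above 30 TPM left out). Others used a fast fibre covariate, took out a trend with length and GC, or summed the copies. The fast myosin covariate was added after seeing the data. The fit was also tested on simulated data with known changes, built from the means and spreads of these libraries.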

Additional observations from a re-analysis of the deposited data

How the results depend on the processing

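In HF minus LF averaged, the count of called members stayed within 1.5 times of 26 in all 26 alternatives (24 to 28 with each library left out), although array weights called 6894 genes in all against 4447. The median member moved from -0.22 to -0.36 with no filter, where the median of all genes is set by unexpressed genes, and to -0.063 with the fast myosin covariate. Of called values, Gapdh turned before the shift by the all-gene median (-0.11 with copies summed, 0.035 after the shift), and Eno3 turned after it (0.02 with the covariate). In controls the count of 10 became 0 with no filter, 17 with quantile normalization, 16 with rescaled TPM, 24 with array weights, 5 with the fast myosin covariate and 1 without the 3 libraries high in Myh4, and ran from 0 to 16 with each library left out; the median became -0.32 with no filter and -0.080 with the covariate. After laparotomy the count of 17 became 10 with no filter, 8 with size factors and 28 with array weights and ran from 7 to 22 with each library left out; the median became -0.40 with no filter, -0.12 with array weights and -0.035 with the covariate and ran from -0.27 to -0.14 with each library left out. Array weights called 4 members for laparotomy in LF and 3 averaged, and the interaction median was -0.0020 without the 3 libraries high in Myh4 and 0.02 to 0.13 with each library left out. The causes of these moves were not tested. Member counts in controls and after laparotomy stand here without the all-gene counts of each setting, so they do not set the members apart. Among members that passed neither in the reported fit nor in the alternative there were 25 sign changes. With 3 libraries a group and no read counts, small differences of genes near 1 TPM could not be resolved. No paired analysis was possible because replicate numbers follow accession order and pair nothing.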

Other observations

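The members were also summarised per library, as the median over the 39 genes of the deviation of log2(TPM + 1) from each gene's own mean, minus the same over all tested genes. It ran from 0.01 to 0.16 in the 6 LF libraries and from -0.22 to 0.06 in the 6 HF libraries, so that the HF library with the highest value, HF control 3, lay among the LF libraries. The same library had a fast myosin share of 55.0%, against 35.4% and 36.7% in the other HF control libraries and 51.5% to 61.0% in LF. HF laparotomy 2, with a share of 52.9%, was also within the LF range of that share. Its median over the members was -0.003, just below the lowest LF value of 0.013 in LF control 1. The pooled SD of these medians within groups was 0.10. LF laparotomy 1, with the highest share, had a median of 0.02. Whether the share and the median go together was not tested.

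Of the near-identical copies of Gapdh, the processed pseudogenes Gm10359 and Gm12671 were listed with the same mean of 305.7 TPM each, and the Pgk1 copy Gm5537 had a mean of 12.7 TPM. How reads of a gene and its copies were divided was not tested, and it touches the value of each gene of these families.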
